A study of Mus musculus with 2 samples.

Results

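RNA polymerase II and Mediator are the protein complexes that transcribe protein-coding genes and connect them to their regulators. Their subunit genes were taken from the gene tables as every protein-coding gene whose GENCODE symbol begins with Polr2, or with Med and a digit, with 1 Mediator gene left out. The rule found 42 genes of 43346 annotated ones, or of 21474 protein-coding ones. They were 13 polymerase genes and 29 Mediator genes. The RNA came from G1E cells, a mouse erythroid progenitor line that is described as immortalized and Gata1-minus. GATA1 is the transcription factor that drives red cell maturation. The labels give the line as male and of postnatal origin and name no treatment. There was 1 group of 2 poly(A) RNA libraries, named biological replicates 1 and 2, and both cite a single biosample. Nothing beyond that name shows separate cultures, so the spread between the libraries may be technical. No second condition was measured, so what the data hold is the level of each subunit transcript, its order among the others and its difference between libraries.

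RNA polymerase II is built around a catalytic pair of large subunits, with smaller subunits that form its assembly platform, jaw and stalk, and several of the small ones also serve polymerases I and III. Mediator bridges activators bound to DNA and the polymerase at the promoter, with a head and a middle module that contact the polymerase, a tail that receives many activators and a kinase module that binds reversibly. In red cell precursors this machinery acts with lineage factors such as GATA proteins at enhancers and promoters of erythroid genes.

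Replicate 1 held 31633573 gene counts from reads of 36 nt and replicate 2 held 56978193 from reads of 55 nt. Levels are given in TPM, which is counts over transcript length scaled to a fixed total per library, so they can be compared between genes. Paired values are those of replicates 1 and 2 in that order. Genes annotated as protein-coding held 84.4% of that total in replicate 1 and 75.1% in replicate 2, so TPM lie lower in replicate 2 for the same share of the protein-coding RNA. The gene named as missing, Gata1, had 88.2 and 61.4 TPM, so its transcript was not absent, and which part of the gene the reads cover was not tested. The erythroid progenitor markers Gata2, Kit, Klf1, Epor and Tfrc reached 1 TPM in both libraries, with Tfrc at 48.4 and 139 TPM. None of 11 myeloid, lymphoid, fibroblast, endothelial and pluripotent markers did. Col1a1, at 0.51 TPM in replicate 1, and Mpo, at 0.25 TPM in replicate 2, were the highest of these, and Elane had 0 counts in both.

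Nearly every subunit gene was expressed. Of the 42, 41 (97.6%) reached 1 TPM in each library, against 42.5% of the 21474 protein-coding genes. The exception was Med12l, a paralog of the kinase-module subunit Med12, with 33 counts in replicate 1 and 1 count in replicate 2. The other 41 had between 100 and 44066 counts in replicate 1 and between 335 and 22247 in replicate 2. All 41 also stood at 5 TPM or more. The median over the 42 was 37.5 and 35.2 TPM in replicates 1 and 2. Of the 42, 29 lay above 23.5 TPM, the mean level of the median expressed protein-coding gene. These were 11 of 13 polymerase genes and 18 of 29 Mediator genes.

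Polymerase transcripts stood above Mediator transcripts. The median was 90.5 and 73.1 TPM for the 13 polymerase genes in replicates 1 and 2, and 29.1 and 29.7 TPM for the 29 Mediator genes. On the log2(TPM + 1) scale the difference of the medians was 1.60 in replicate 1 and 1.27 in replicate 2, a mean of 1.44 ± 0.23 (SD, n = 2). The difference was thus larger than the spread between the libraries and had the same sign in both. It was about as large as the spread among genes, whose log2 levels had an SD of 1.41 for polymerase and 1.34 for Mediator. With 2 libraries of 1 group no test was possible that could go below an exact p of 0.5. The 2 sets overlapped over most of their range, from 9.09 to 182 TPM for polymerase means and from 0.0700 to 119 TPM for Mediator means. Without the associated protein gene Polr2m and the paralogs Med12l and Med13l, the difference was 1.05. Summed over the genes of the rule, both sets held similar amounts, 1408 and 1073 TPM for the 13 polymerase genes and 1315 and 1003 TPM for the 29 Mediator genes. Without Polr2m the polymerase sum was 1219 and 915 TPM. The Mediator sum leaves out 1 Mediator gene and the kinase module genes Cdk8, Cdk19 and Ccnc. It includes 176 and 62.5 TPM of Med12, of which transcripts annotated as protein-coding held 23.7 and 17.8 TPM.

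**Figure D1:**
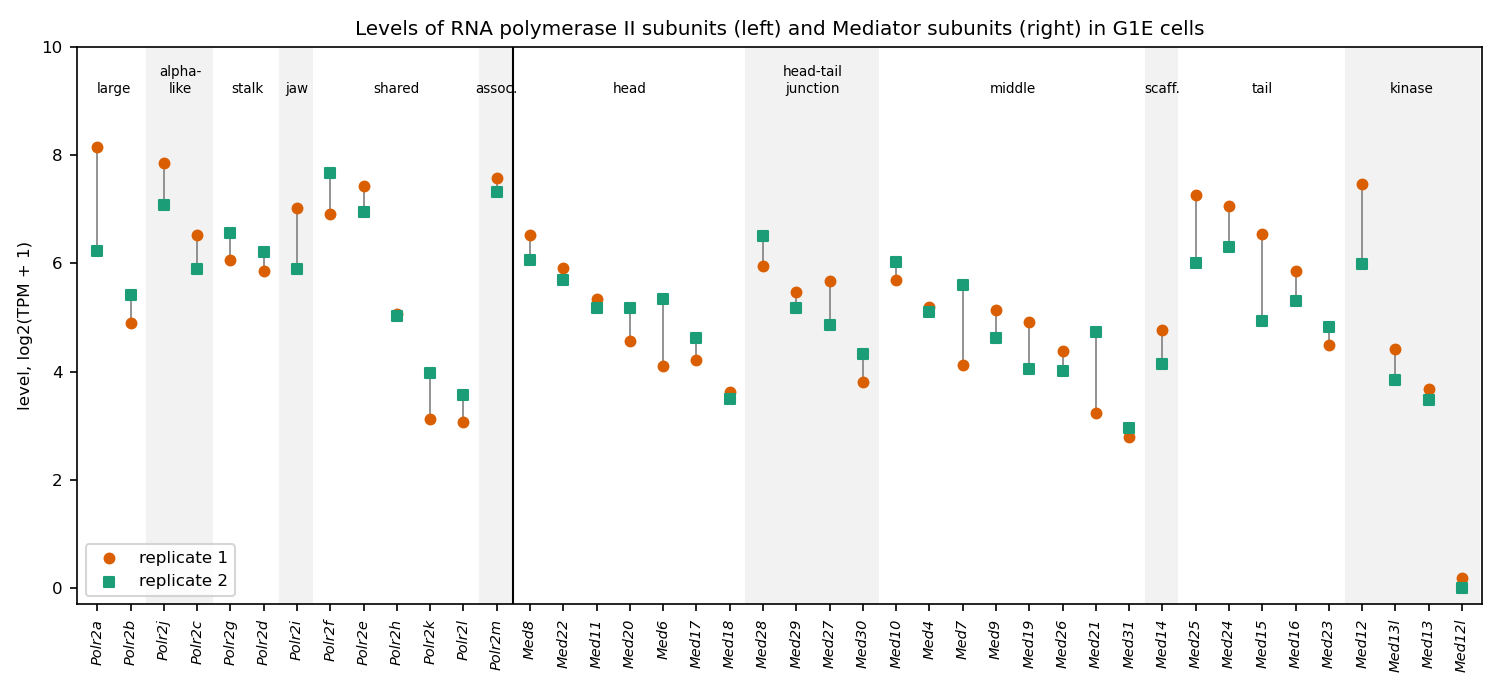
Level of each of the 42 genes as log2(TPM + 1) in replicate 1 (circles) and replicate 2 (squares), polymerase genes left and Mediator genes right of the black line, grouped by module and ordered by mean level within it. The polymerase genes have the higher medians (90.5 and 73.1 TPM against 29.1 and 29.7 TPM), Polr2a has the widest gap between libraries among the polymerase genes and Med12l lies at the floor.

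Promoter windows are shown for 5 genes that mark the ends of this range and its paralog and neighbour pairs: Polr2j and Polr2a, the highest by mean level, Med12 with its barely detected paralog Med12l, and Med22, which shares its start region with a ribosomal protein gene. Each runs from 250 bases before to 50 bases after the RefSeq start in GRCm38.p6, read 5′ to 3′ along the gene. Capitals mark, on either strand, the ETS motif (CCGGAAG), the GC box (GGGCGG), the CCAAT box (CCAAT) and the TATA box (TATAAA).
Polr2j, chr5:136116441-136116740, plus strand: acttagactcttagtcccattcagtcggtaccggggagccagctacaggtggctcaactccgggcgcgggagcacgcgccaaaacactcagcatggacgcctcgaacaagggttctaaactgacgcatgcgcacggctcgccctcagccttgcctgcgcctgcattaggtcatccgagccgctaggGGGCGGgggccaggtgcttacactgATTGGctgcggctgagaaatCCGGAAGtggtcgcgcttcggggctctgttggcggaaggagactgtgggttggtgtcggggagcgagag
Polr2a, chr11:69758584-69758883, minus strand: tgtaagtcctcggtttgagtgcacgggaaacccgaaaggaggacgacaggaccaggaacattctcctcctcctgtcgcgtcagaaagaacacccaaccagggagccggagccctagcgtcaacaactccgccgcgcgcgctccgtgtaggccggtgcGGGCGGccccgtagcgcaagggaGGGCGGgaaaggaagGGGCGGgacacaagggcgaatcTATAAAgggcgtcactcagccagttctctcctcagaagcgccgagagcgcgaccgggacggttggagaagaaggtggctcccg
Med12, chrX:101273841-101274140, plus strand: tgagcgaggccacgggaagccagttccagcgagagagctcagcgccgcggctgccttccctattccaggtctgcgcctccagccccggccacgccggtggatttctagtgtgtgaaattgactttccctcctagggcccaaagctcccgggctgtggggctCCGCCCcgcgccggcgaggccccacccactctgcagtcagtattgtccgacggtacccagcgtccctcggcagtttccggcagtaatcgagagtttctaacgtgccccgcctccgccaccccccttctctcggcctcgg
Med12l, chr3:59006728-59007027, plus strand: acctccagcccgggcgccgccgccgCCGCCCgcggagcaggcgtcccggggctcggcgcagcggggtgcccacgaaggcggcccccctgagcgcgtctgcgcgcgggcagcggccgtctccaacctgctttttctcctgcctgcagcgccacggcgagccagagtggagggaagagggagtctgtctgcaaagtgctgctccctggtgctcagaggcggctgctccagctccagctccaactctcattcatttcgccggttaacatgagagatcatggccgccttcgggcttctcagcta
Med22, chr2:26910593-26910892, minus strand: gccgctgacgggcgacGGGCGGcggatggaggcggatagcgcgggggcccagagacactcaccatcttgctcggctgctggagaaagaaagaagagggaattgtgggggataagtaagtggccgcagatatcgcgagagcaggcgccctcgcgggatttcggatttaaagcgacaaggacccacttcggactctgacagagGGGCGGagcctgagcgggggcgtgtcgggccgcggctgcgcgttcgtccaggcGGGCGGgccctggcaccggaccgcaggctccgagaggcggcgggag

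The Polr2j window held 1 ETS motif, 1 GC box and 1 CCAAT box on the opposite strand, within 64 bases of the start. Polr2a had 3 GC boxes followed by a TATAAA that begins 33 bases before the start. The windows of Med12 and Med12l each had 1 GC box and no other capitalised motif, although Med12 was among the highest of the 42 genes and Med12l the lowest. The Med12l window lies 1153 bases from the GENCODE start of that gene, so it may not be the start that GENCODE places first. Med22 had 3 GC boxes, 1 of them just after its own start.

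Windows were on hand for 35 of the 42 genes, and not for Med8, Med23, Med24, Med30, Polr2d, Polr2g and Polr2k. They were rich in CpG, with a median of 23 CpG per window, against 22 in 7291 expressed protein-coding genes and 14 in all 16317 with a window. Promoters of widely expressed genes often carry the GC box, which Sp1-type factors bind, and the ETS motif, which ETS factors bind. A GC box was in 23 of 35 windows (65.7%), against 68.3% of expressed and 48.6% of all genes. The ETS motif was in 10 of 35 (28.6%), against 22.7% of expressed and 12.4% of all genes. Among the 10 is Med15, whose window lies 9944 bases from its GENCODE start and holds the motif only after the RefSeq start. For both motifs the share lay nearer to that of expressed genes than to that of all genes. The CCAAT box was in 34.3% of the 35 windows and in 40.3% of expressed genes. TATAAA was in 5 (14.3%), namely Polr2a, Polr2c, Med7, Med16 and Med28, against 5.93% of expressed and 12.6% of all genes. These shares count it anywhere in the window. Its distance before the start was 33 bases in Polr2a, 61 in Med28, 151 in Polr2c and 243 in Med7. In Med16 it was 231, on the opposite strand. AGATAA, the letters that GATA factors bind, was in 3 (Med13l, Med16 and Med25, 8.57%), against 5.95% of expressed and 9.60% of all genes. The E-box CACGTG was in 4 of the 35 windows (11.4%), against 11.1% of expressed and 8.13% of all genes. AAGATGGC, the YY1 motif, was in Med31 alone (2.86%), against 5.94% of expressed and 3.30% of all genes. TGACGTCA, the CREB motif, was in Med21 alone (2.86%), against 3.73% of expressed and 2.44% of all genes. All 8 motifs were searched on both strands, and none of them is contained in another.

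Among the polymerase genes, Polr2a encodes RPB1, the largest and catalytic subunit, whose repeated C-terminal tail is phosphorylated through the transcription cycle. It stood at 282 TPM in replicate 1 (44066 counts) and 74.4 TPM in replicate 2 (22247 counts), a mean of 178 ± 147 TPM (SD, n = 2). Replicate 1 was thus 3.79-fold above replicate 2 in TPM, and its counts were also higher in spite of the smaller library. The log2 TPM ratio, replicate 2 over replicate 1, was -1.92, and -1.75 with TPM rescaled over protein-coding genes. Polr2b encodes RPB2, which closes the active centre with RPB1. Its level was 28.9 and 41.5 TPM in the libraries. Polr2a exceeded Polr2b in both libraries, by 3.24 in replicate 1 and 0.83 in replicate 2 on the log2(TPM + 1) scale, so the excess was past 2-fold in replicate 1 only.

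Polr2c and Polr2j encode the subunits RPB3 and RPB11, which resemble the bacterial alpha subunits and form the platform on which the enzyme assembles. Polr2j had 230 and 134 TPM in replicates 1 and 2, and Polr2c had 90.5 and 58.6 TPM. Polr2c was below Polr2j, with a mean log2 difference of -1.26 ± 0.11 (SD, n = 2), past 2-fold in both libraries. The stalk subunits, RPB4 from Polr2d and RPB7 from Polr2g, were closer. Polr2d had 56.9 and 73.1 TPM and Polr2g 65.6 and 93.2 TPM, a difference of -0.27 ± 0.10 (SD, n = 2) with the same sign in both libraries. Polr2i, for the jaw subunit RPB9, had 129 and 58.3 TPM.

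The 5 subunits shared with polymerases I and III ranged from 9.09 to 161 TPM by mean. Polr2f (RPB6) had 119 and 203 TPM and Polr2e (RPB5) had 171 and 122 TPM, which made them the highest of the 5 in both libraries. Polr2h (RPB8) was in the middle at 32.4 and 31.6 TPM. The smallest zinc-binding subunits were lowest: Polr2k (RPB12) had 7.69 and 14.8 TPM, and Polr2l (RPB10) had 7.37 and 10.8 TPM. Of all 13 polymerase genes, Polr2k and Polr2l were the 2 below the median expressed gene. The table's transcript of Polr2l is 1650 nt long and that of Polr2f is 543 nt, and TPM divides by that length. Polr2m, for the protein Gdown1 that binds the polymerase and makes it depend on Mediator in cell-free assays, had 189 and 158 TPM. It was below Polr2a in replicate 1 and above it in replicate 2, at log2 differences of -0.57 and 1.07, so no order holds between them. By mean level Polr2j (182 ± 67.3 TPM), Polr2a (178 ± 147 TPM) and Polr2m (173 ± 22.1 TPM, SD, n = 2) were the highest of the 42 genes, and they did not differ beyond their spread.

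In the Mediator head, which contacts the polymerase and its initiation factors, medians over 7 genes were 22.8 and 35.3 TPM. Med8 was highest with 90.9 and 65.5 TPM, followed by Med22 with 59.6 and 50.6 TPM. Med17, the head's scaffold subunit, had 17.6 and 23.6 TPM, and Med18, at the tip of the head, was lowest with 11.3 and 10.3 TPM. The remaining Med11, Med20 and Med6 had means between 27.9 and 37.2 TPM. Med11 and Med22, which pair in the head, differed by -0.55 ± 0.04 on the log2 scale (SD, n = 2), and the log2 difference of Med18 and its partner Med20 was -0.95 and -1.68. The genes that different sources place in head or tail were led by Med28, at 61.1 and 89.4 TPM, and ended with Med30, at 13.0 and 19.0 TPM. Between them lay Med29 at 43.3 and 35.1 TPM and Med27 at 49.8 and 28.2 TPM.

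The middle module, which links the head to the kinase module, had medians of 24.4 and 24.6 TPM over 8 genes. Med10 was highest with 51.0 and 64.0 TPM, followed by Med4 with 35.5 and 33.4 TPM. Med21 had 8.44 and 25.5 TPM and Med31, the lowest, 5.92 and 6.76 TPM. Med7, Med9, Med19 and Med26 had means between 17.4 and 32.0 TPM. Med26 is the subunit that also binds elongation factors. Med7 and Med21 form the hinge of the module, and both were about as far apart in each library: the log2 difference of Med7 and Med21 was 0.89 in replicate 1 and 0.87 in replicate 2, although each gene was itself higher in replicate 2, with 16.5 and 47.6 TPM for Med7. Over transcripts annotated as protein-coding the difference averaged 0.18. Med14, the backbone that joins head, middle and tail, had 26.1 and 16.7 TPM.

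The tail, which many activators bind, had the highest median of the Mediator modules in both libraries, 91.9 and 38.6 TPM over 5 genes, although the head came close in replicate 2. Med25, a target of viral and cellular activators, had 152 and 63.6 TPM. Med24 had 132 and 78.2 TPM, and Med15, which binds lipid and developmental regulators, had 91.9 and 29.7 TPM. Med16 had 57.3 and 38.6 TPM, and Med23, which binds growth-signal regulated factors, was lowest at 21.5 and 27.2 TPM. Replicate 1 was the higher library for 4 of the 5, the exception being Med23. The log2 difference of Med23 and Med24 was -2.57 and -1.49, past 2-fold in both libraries.

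In the kinase module, Med12 activates the cyclin-dependent kinase and Med13 tethers the module to the core. By mean level Med12 was the highest Mediator gene (119 ± 80.6 TPM, SD, n = 2), with 176 and 62.5 TPM. In replicate 2 it lay below Med28, Med24, Med8, Med10 and Med25. Med13 had 11.8 and 10.1 TPM and its paralog Med13l had 20.4 and 13.4 TPM, so Med13 was the lower of the pair in both libraries, with a log2 difference of -0.56 ± 0.25 (SD, n = 2). Med12l was listed at 0.14 TPM in replicate 1 and at 0 TPM in replicate 2, within the range of the markers of other lineages. Per length, Med12 counts were 1265 times those of Med12l in replicate 1 (95% counting interval 900 to 1839). In replicate 2 the ratio rests on 1 count of Med12l and its interval runs from 5134 to 1130322. Intervals cover counting error only, and not the division of reads among transcripts. Over transcripts annotated as protein-coding Med12 had 23.7 and 17.8 TPM, so its ratio to Med12l is smaller there. The kinase partners, which were not chosen by symbol, were Cdk8 at 46.2 and 31.8 TPM, its paralog Cdk19 at 8.12 and 8.53 TPM and Ccnc, their cyclin, at 3.96 and 9.24 TPM. Cdk8 stood above Cdk19 by 2.08 ± 0.42 on the log2 scale (SD, n = 2).

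Of 12 pairs of paralogs and partner subunits compared, 5 were past 2-fold, with the same sign, in each library. These were Med12 over Med12l, Cdk8 over Cdk19, Med12 over Med13 (3.15 ± 0.90, SD, n = 2), Med24 over Med23 and Polr2j over Polr2c. No p-value is given for them. When levels were summed over transcripts annotated as protein-coding only, an alternative chosen after the data were seen, 3 pairs were past 2-fold in both libraries. Cdk8 over Cdk19, with a mean of 0.62, and Med23 over Med24, with a mean of -1.59, were not, and Med12 over Med13 averaged 1.70.

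Gene levels include transcripts that are not annotated to encode protein, and these carried much of Med12. Protein-coding transcripts held 13.4% of the Med12 TPM in replicate 1 and 28.4% in replicate 2, although they held 48.5% and 70.1% of its counts. Med12-205, a processed transcript of 881 nt, took 43.7% and 23.5% of the gene's TPM, and Med12-206, of 448 nt, took 26.3% and 23.6%. Over protein-coding transcripts alone Med12 averaged 20.7 ± 4.19 TPM (SD, n = 2) and ranked 28 among the 42, where its whole-gene mean of 119 TPM ranked 6. Reads of 36 or 55 nt that fall in shared exons are divided between such transcripts by estimation. Which transcripts the cells hold was not tested.

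Polr2m and Med13 were affected as well. Polr2m-203, annotated as a target of nonsense-mediated decay, took 45.7% and 33.5% of Polr2m, and its coding transcripts averaged 104 ± 1.63 TPM (SD, n = 2). Med13 drew 35.3% and 74.6% of its TPM from coding transcripts, which averaged 5.85 TPM. The coding level of Med24 was 69.2 TPM, against 105 TPM over all its transcripts, and that of Med14 was 14.4 TPM, against 21.4 TPM. The coding level of Med28 was 46.6 TPM, that of Med7 19.0 TPM and that of Med6 17.2 TPM. With coding transcripts alone 41 of the 42 genes still reached 1 TPM in each library, and the median of the polymerase genes lay 1.66 above that of the Mediator genes on the log2 scale.

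**Figure D2:**
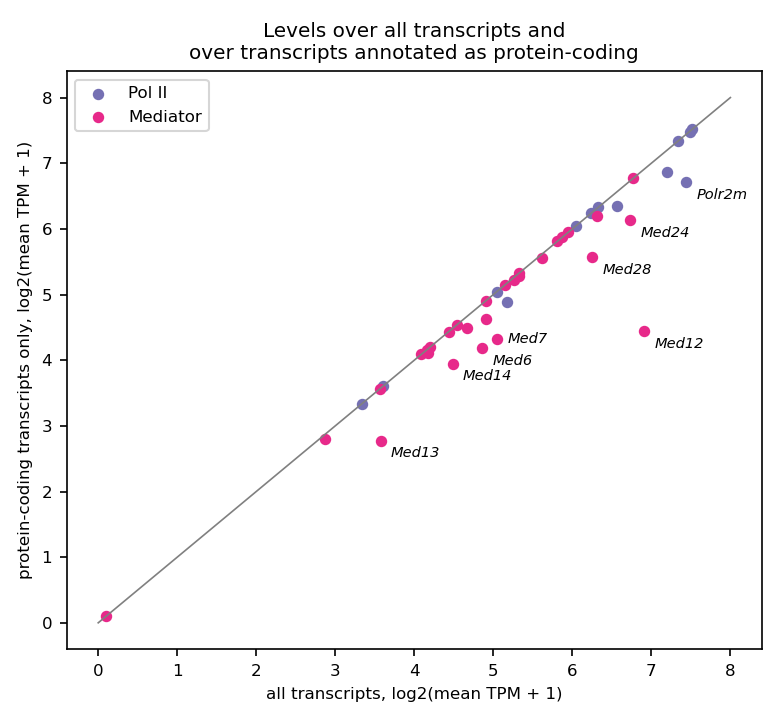
Mean level over the 2 libraries from all transcripts (horizontal, log2(mean TPM + 1)) against the level from transcripts annotated as protein-coding (vertical, the same scale), one point per gene, polymerase and Mediator genes in different colours, with the line of equality. Most genes lie on the line, and Med12 lies furthest below it (119 TPM over all transcripts and 20.7 TPM over coding ones).

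A leading transcript, which is the one with the largest share of its gene's TPM, could be compared in 27 genes with 2 or more annotated transcripts. Of the 27, 19 (70.4%) kept their leader across the libraries, against 67.3% of 7762 protein-coding genes that had 2 or more transcripts and 50 counts or more, so this share is close to the background. The 8 that differed were Polr2i, Med6, Med12, Med13, Med14, Med22, Med23 and Med28. In Med14, Med14-203 held 54.4% in replicate 1 and 3.81% in replicate 2, and Med14-202 held 10.7% and 52.3%, both being annotated as protein-coding. In Med13, the 540-nt processed transcript Med13-202 led replicate 1 with 64.8% and the full-length Med13-201 led replicate 2 with 74.7%. The leader was not annotated as protein-coding in at least 1 library for 5 of the 27 (Med6, Med7, Med12, Med13 and Med28, 18.5%), against 27.6% of those 7762 genes. Med7-208, a processed transcript of 445 nt, led Med7 in both libraries with 46.8% and 38.6%.

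**Figure D3:**
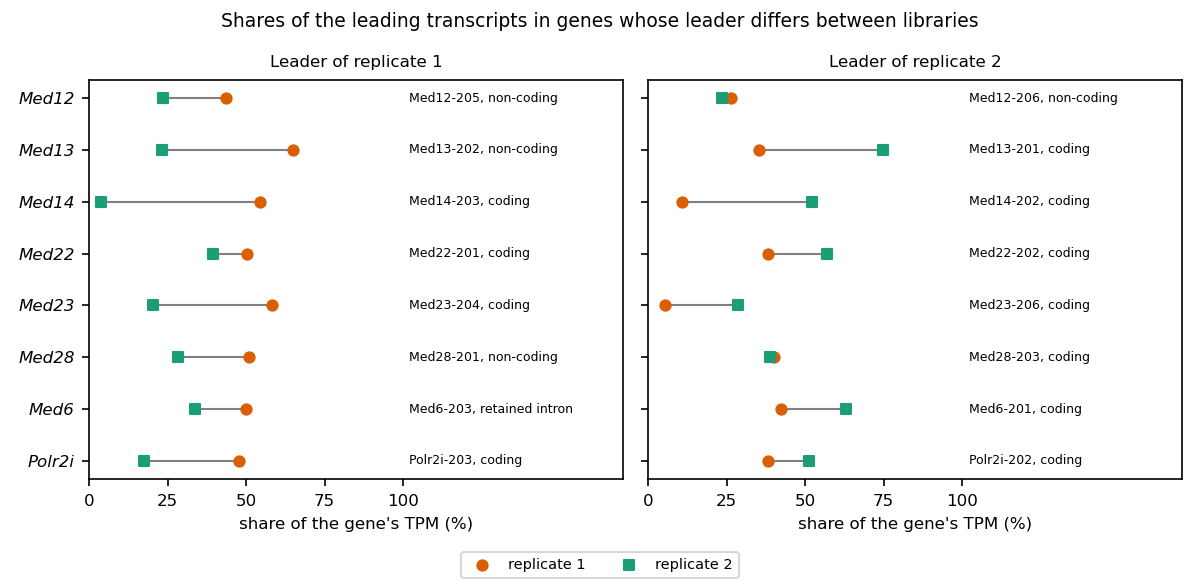
Share of the gene's TPM, in percent, of the transcript that led replicate 1 (left panel) and of the one that led replicate 2 (right panel), for the 8 genes whose leading transcript differed, with circles for replicate 1 and squares for replicate 2. Med14 and Med13 show the widest shifts, with Med14-203 at 54.4% and 3.81% and Med13-201 at 35.2% and 74.7%.

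Between the libraries, 7 of the 41 genes with 50 counts or more were at least 2-fold apart (17.1%), against 29.5% of 12414 genes of all types and 25.4% of 10467 protein-coding genes. The ratios are of counts scaled by TMM library sizes, replicate 2 over replicate 1, with 0.5 added, and a call means only that the ratio is past 2-fold, since 1 library stands against 1. In bulk RNA, fewer cells of a kind and less RNA per cell cannot be told apart. Higher in replicate 2 were 3 of the 41 (7.32%), namely Med7, Med21 and Med6, by 1.83, 1.70 and 1.48 on the log2 scale. Med6, a head subunit, had 268 counts in replicate 1 and 1396 in replicate 2. Lower in replicate 2 were 4 (9.76%), namely Polr2a, Med15, Med25 and Polr2i, at -1.89, -1.59, -1.21 and -1.10. The background shares by direction were 16.4% of all genes higher and 13.1% lower. The 41 genes were all expressed, and of 9110 expressed protein-coding genes 1218 were 2-fold higher and 525 lower. These expressed genes, and not all genes, are thus the background closest to the 41. The 17.1% against 29.5% is therefore not read as a smaller difference. Among the expressed genes more were higher than lower, while of the 41 genes 3 were higher and 4 lower. The median absolute log2 ratio was 0.57 over the 41 genes, 0.59 over all 12414 and 0.48 over the 9110 expressed protein-coding genes. By this measure the subunit genes lay about as far apart between libraries as all genes did, and slightly further apart than expressed protein-coding genes. Their levels kept a Spearman correlation of 0.84 between the libraries over the 41 genes, against 0.92 over 9110 expressed protein-coding genes, as a description only.

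Scaling moved the split of these calls. DESeq2 size factors, and TMM factors taken over all genes without a filter, shift every log2 ratio upward by 0.24 and 0.25, and each gave 7 higher and 2 lower genes in place of 3 and 4. These are 9 of the 41 genes, against 32.3% of all 12414 genes with the DESeq2 factors and 32.5% with the unfiltered TMM factors. Med7, Med21 and Med6 stayed higher and Polr2a and Med15 stayed lower under both. Med25 and Polr2i were then just inside 2-fold, at -0.97 and -0.86 with the DESeq2 factors, and Polr2b, Polr2f, Polr2k and Med13 were called higher. Of these, Polr2k and Med13 stood at -0.52 and -0.28 once the trend with GC content, described next, was subtracted from the ratios given first. With ratios of TPM in place of counts, Med12 joined the lower genes.

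The ratio between libraries moved with base composition. Over the 41 genes its Pearson correlation with the GC content of the gene's transcripts was -0.60, and -0.63 without Polr2a, against -0.48 over 9110 expressed protein-coding genes. The points share the same 2 libraries, and no p is given. The 8 genes lowest in GC content had a median log2 ratio of 0.89 and the 13 highest had -0.49. Between them, 11 genes above 46% and up to 50% had 0.23, and 9 above 50% and up to 54% had -0.55. The medians thus did not fall further above 54%. Med7, Med21 and Med6 lie at 43.0%, 44.0% and 43.9% GC, and Med25 and Polr2i at 59.5% and 57.1%. With the trend over all genes subtracted, Polr2a stood at -1.72 and Med15 at -1.39, and Med7 and Med21 at 1.10 and 1.12, all still past 2-fold. Med6, Med25 and Polr2i fell inside the 2-fold range, at 0.88, -0.91 and -0.80, and Med19 at -1.26 and Polr2f at 1.06 came out of it. Read length also differed between the libraries, and its part in these ratios cannot be told apart from that of the library.

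**Figure D4:**
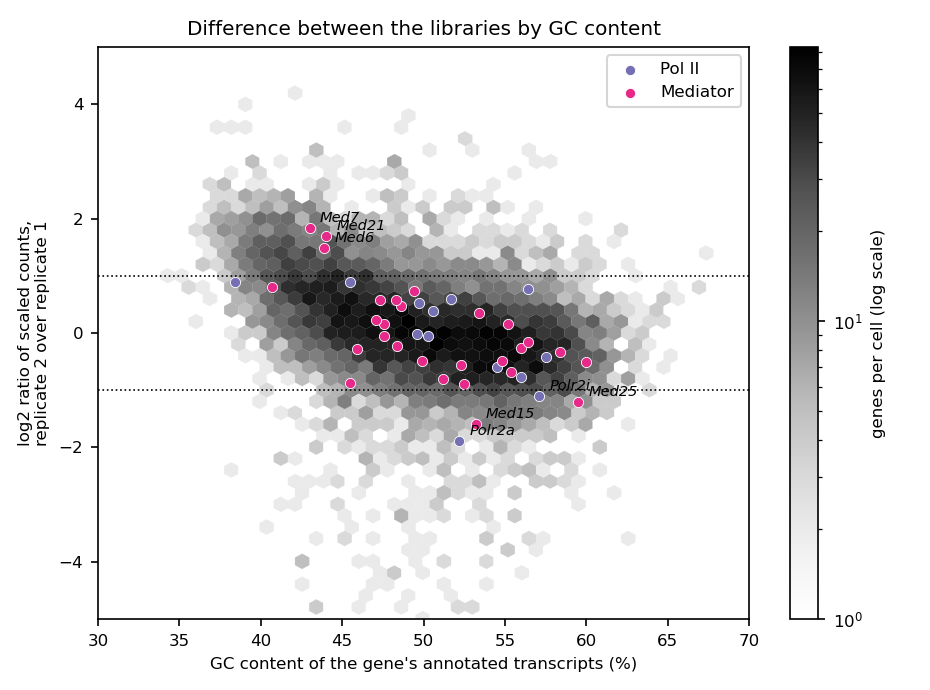
Log2 ratio of scaled counts, replicate 2 over replicate 1, against the GC content of each gene's annotated transcripts in percent, for 11899 genes in grey hexagonal cells (431 genes beyond the axes are not drawn) and for the polymerase and Mediator genes as coloured points. Dotted lines mark 2-fold and the named genes are the 7 past it. The coloured points have lower medians above 50% GC than below it (Pearson r of -0.60 over 41 genes).

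Overlapping genes and shared sequence limit single values. Of the 36-base words in the Med10 transcripts that the tables quantify, 78.8% also occur in a quantified transcript of another gene, all of them in Gm26819, a long non-coding gene on the opposite strand that stood at 2.44 and 2.93 TPM. Polr2c shared 58.1% of its words, most of them with the processed pseudogene Gm11993, at 29.97 and 1.1 TPM. Polr2i shared 21.6%, all with Tbcb, at 33.67 and 35.02 TPM. Polr2l, among the lowest polymerase genes, shared 25.4%, most with Usp50, at 168.14 and 209.02 TPM. Polr2j shared 12.8%, all with Lrwd1, at 105.41 and 85.42 TPM. Med21, higher in replicate 2 above, shared 19.6%, most with the processed pseudogene Gm6654, at 6.79 and 0 TPM. Med13 shared 6.19%, all with Brip1os on the opposite strand, at 22.91 and 12.75 TPM. Med19 shared 10.3%, all with Zdhhc5, at 45.07 and 23.38 TPM. The part of these genes in the values of Polr2c, Polr2i, Polr2l, Polr2j, Med21, Med13 and Med19 was not tested. Strand use in counting is not given in the sources used here, and the reads of such pairs may have been divided between them by estimation. Polr2a, Polr2m, Polr2d, Polr2g, Polr2e, Polr2f, Med6, Med8, Med9, Med11, Med13l, Med14, Med22, Med26, Med28, Med29 and Med30 shared no such word with another gene.

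Of the 42 genes, 7 start within 1000 bases of a protein-coding gene that runs the other way (16.7%), against 12.9% of expressed and 6.83% of all protein-coding genes. Med22 lies 87 bases from Rpl7a, the ribosomal protein gene that stood at 1268 and 1267 TPM, while Med22 itself had 59.6 and 50.6 TPM. Med29 lies 243 bases from Paf1, an elongation factor subunit at 110 and 69.3 TPM. Med20, Polr2b and Polr2l lie between 63 and 108 bases from Bysl, Noa1 and Tspan4, and Med19 lies 361 bases from Gm28635. Bysl stood at 35.35 and 32.69 TPM, near Med20 itself, and Gm28635 at 0 and 0.05 TPM. Levels on the 2 sides of such a start region were thus alike in some pairs and far apart in others.

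The rest of the transcription machinery gives the scale for these levels. Each of 18 initiation factor genes was expressed, and the median of their means was 33.6 TPM, led by Gtf2f1 at 111 TPM and Tbp, the TATA-binding protein, at 76.2 TPM. The same held for 20 pausing and elongation genes, whose median was 60.3 TPM, led by Ssrp1, a histone chaperone subunit, at 334 TPM and Supt4a at 198 TPM. Of 13 assembly and tail-phosphatase genes 12 were expressed and the median was 29.3 TPM, Ctdsp1 and Ssu72 being highest at 127 and 93.9 TPM. Ctdspl was the exception at 0.28 and 0.01 TPM. The polymerase I list had a median of 55.0 TPM over 8 genes, led by Polr1d at 133 and Polr1c at 91.6 TPM, whose products also serve polymerase III. The polymerase III list had 21.4 TPM over 11 genes, led by Polr3c at 39.9 and Crcp at 38.7 TPM. The polymerase II genes, with a median of their means of 79.4 TPM, thus lay above each of these lists by median, and the Mediator genes, at 29.0 TPM, lay above the polymerase III list and near the initiation and assembly lists. No difference between lists was tested.

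**Figure D5:**
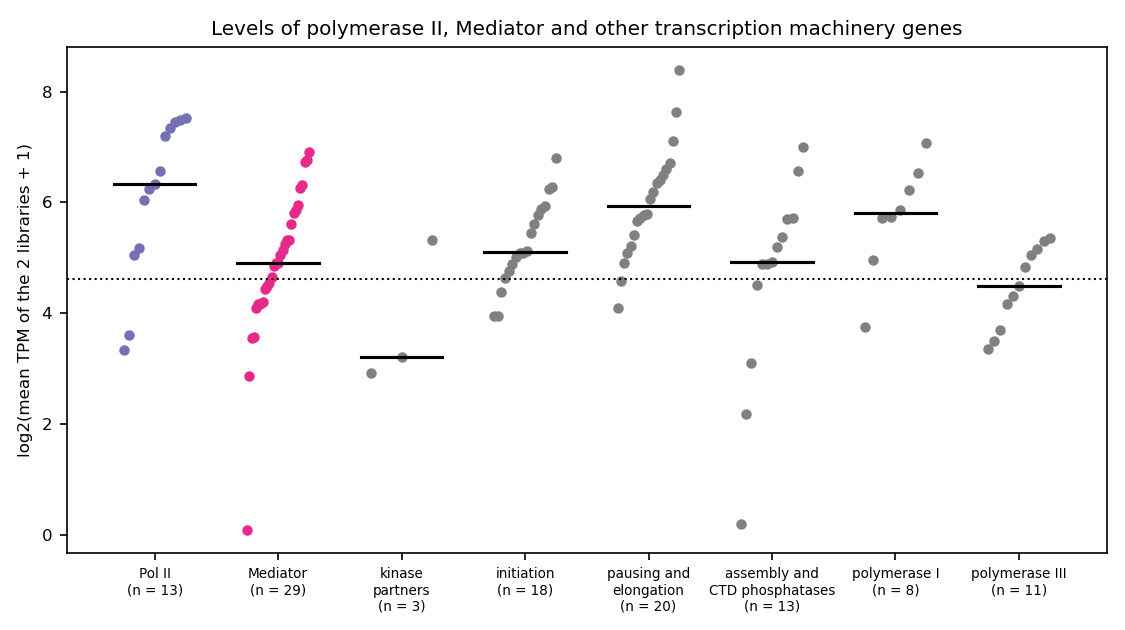
Mean level over the 2 libraries, log2(mean TPM + 1), of polymerase II genes, Mediator genes and 6 other lists of transcription machinery genes, one point per gene, with black bars at the list medians and a dotted line at the median expressed protein-coding gene (23.5 TPM). The polymerase II genes have the highest list median (79.4 TPM), and Med12l and Ctdspl are the points near 0.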

How the data were processed

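The data are single-end poly(A) reads from 2 libraries of G1E cells. They form 1 group, and conditions could not be compared. Per the file headers and the deposited notes, the tables were made per library, not pooled, from alignments to the transcriptome of the assembly mm10 with annotation release M4. Neither aligner nor quantifier nor strand use is given in the sources used here. Expected counts were deposited unnormalised and were rounded for the scaling factors. Deposited TPM and FPKM divide counts by effective length, TPM to a fixed total per library. The deposited signal columns hold the posterior mean of TPM, and the deposited percent column gives each transcript's share of its gene's TPM. Effective lengths imply the read lengths given.

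GENCODE release M21 of GRCm38 gave names, types and positions; 42462 of 43346 gene identifiers and 101510 of 103639 transcript identifiers matched. Entries naming no gene held 0.0363% and 0.00942% of counts and were left out. Promoter sequences are RefSeq's for GRCm38.p6, matched by symbol, with the window nearest the GENCODE start where a gene had several. Shared sequence is the share of the 36-base words of a gene's quantified transcripts found, on either strand, in those of another gene; sequences are those of release M21.

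All 42 genes by the rule could be named, with per-library values for all polymerase genes and, in Mediator modules of over 5 genes, the highest 2 and lowest 2 by mean TPM. Of the other lists, the text names the 2 highest and those under 1 TPM. The genes, lists and pairs were chosen with earlier results of these data known. Mediator's MED27 to MED30 were kept apart from head and tail. 1 Mediator gene, 1 marker gene and 1 neighbouring gene are not reported here.

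TMM factors from edgeR 4.0.16 (R 4.3.3, after its expression filter, 12457 genes) were 0.982 and 1.02; without that filter they were 1.07 and 0.934, and DESeq2 1.42.0 gave 0.796 and 1.26. A gene was called apart at 2-fold with 50 counts or more in total. No p-values were computed. The GC trend was a lowess fit with span 0.3 over all genes. Alternatives changed the level threshold, the unit, the pseudocount of 1, the count minimum, the scaling, the transcripts summed and the libraries used; coding transcripts alone and unfiltered TMM were added after the data were seen. Other steps ran in Python 3.11.15 with matplotlib 3.10.9, statsmodels 0.14.6, scipy 1.17.1, numpy 2.4.6 and pandas 2.3.3.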

Additional observations from a re-analysis of the deposited data

How the results depend on the processing

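Summary counts and medians were recomputed 42 times under alternatives, and 39 of these values stayed within 1.5 times, or within 1 SD, of the value given. For the difference of the medians this SD is that of the 2 libraries. Leaving out either library must land within it, so those values are no check. FPKM and TPM rescaled over protein-coding genes multiply all genes of a library by 1 factor. They could move the summary values only through the pseudocount and the level threshold, so they are hardly a check either. The log2 difference of the polymerase and Mediator medians was 1.05 without Polr2m, Med12l and Med13l, and 19 of 41 genes were apart at 1.5-fold, against 50.6% of all genes. With coding transcripts alone 3 gene pairs were past 2-fold. Leaving out either library gave a difference of the medians between 1.27 and 1.60, between 30 and 31 genes above the median expressed gene, 41 expressed genes, and between 6 and 7 pairs past 2-fold. The sign of Polr2m over Polr2a, 0.25 on the log2 scale, turned to -0.47 with coding transcripts alone and to -0.57 without replicate 2, against 1.07 without replicate 1; the cause was not tested. Of 457 values of single genes and pairs, 390 kept their call or stayed within the spread, 40 moved by more than the spread, 16 came past 2-fold, 9 fell inside it and 2, the pair values just given, turned. Of the 40, 19 came with FPKM and 14 with TPM rescaled over protein-coding genes, which change the unit of all genes. Of 205 ratios of single genes between libraries under alternatives, 19 had another sign, none of them past 2-fold as first given. No paired analysis was possible because there is 1 group. Each read length was used in 1 library only, and Med12l, with 33 counts and 1 count, is the gene whose values depth limits most.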
